A study of Mus musculus with 8 samples.

Results

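The beta-defensin genes were taken as all non-control probes whose array gene name is Defb followed by a number, leaving out Defb36 and Defb42, which are given below for comparison. This gave 26 probes for 24 genes, out of 41174 probes and 27962 gene names on the array. Defb19 and Defb1 had 2 probes each, and every other gene had 1. RNA from whole testicular cells of male mice was hybridised to 8 single-colour microarrays, 4 from Vrk1 mutant (VRK1-/-) and 4 from wild-type (VRK1+/+) mice. Vrk1 encodes a nuclear serine/threonine kinase. The labels call the samples biological replicates, but do not state the age, strain, litter or kind of allele, or which animals gave which sample, and the p-values measure only the spread between these samples. The mutant arrays shared 1 slide and the wild-type arrays another, and the effects of slide and of genotype cannot be told apart here.

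Beta-defensins are small, cationic, cysteine-rich peptides that damage microbial membranes, and several of them also attract immune cells. In mice their genes lie in clusters on a few chromosomes, and many are expressed in the male reproductive tract, above all in the epithelium of the epididymis, where the peptides coat maturing sperm. Deleting part of the chromosome 8 cluster makes male mice infertile.

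Levels are log2 of the deposited signal after division by the array's 75th percentile, so that 0 is the 75th percentile of the non-control spots on that array. Signals below 0.01437 of the percentile were raised to that value, a log2 level of -6.12 called the floor. The scanner software calls a spot well above background when it clears a multiple of the background noise. A probe was tested when 4 or more of the 8 arrays had it well above background, which held for 33718 probes. Differences are log2 levels, mutant minus wild type, tested with limma and adjusted by Benjamini-Hochberg over all 33718 probes, with a threshold of 0.05. Both Vrk1 probes were lower in the mutant, by log2 differences of -2.26 (adjusted p = 1.65e-04) and -2.06 (adjusted p = 1.24e-04), with no overlap between genotypes. The 75th percentile itself was 927.9 to 1124 on mutant arrays, against 679.7 to 790 on wild-type arrays, and 83 to 86.2% of all probes were well above background on mutant arrays, against 72.9 to 77.1% on wild-type arrays. With whole tissue, fewer cells of a type and less RNA per cell cannot be told apart.

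The probe sequences show how far each measurement belongs to 1 gene, and those that carry the results are printed here, 5′ to 3′, with the mm7 positions of the file headers. The Defb3 probe covers the start of the transcript, including the signal peptide region that several chromosome 8 paralogs share.
Defb3 probe, chr8:19270120-19270179, plus strand: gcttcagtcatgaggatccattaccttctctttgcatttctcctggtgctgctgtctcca
The array annotation lists transcripts of 3 genes for it, Defb3, Defb8 and Defb4. Set without gaps against the RefSeq windows around the gene starts (GRCm38.p6), it matched 46 of 47 overlapping bases of Defb3, 57 of 59 of Defb5, 44 of 46 of Defb8, 44 of 48 of Defb7 and 29 of 32 of Defb6. The next best member window, that of Defb10, matched 18 of 32. Signal on this probe therefore cannot be assigned to Defb3 alone.

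Defb34 and Defb15 formed the most alike pair of probes from different genes, with 54 of 60 identical bases. Capitals mark the 6 bases at which they differ.
Defb34 probe, chr8:19103075-19103134, plus strand: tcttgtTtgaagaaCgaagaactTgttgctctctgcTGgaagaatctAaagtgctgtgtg
Defb15 probe, chr8:20712854-20712913, minus strand: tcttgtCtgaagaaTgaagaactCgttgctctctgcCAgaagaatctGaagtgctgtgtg
The next most alike pair, Defb40 and Defb39, shared 38 of 59 bases, and these neighbouring genes are shown because both passed the test.
Defb40 probe, chr8:18951697-18951756, minus strand: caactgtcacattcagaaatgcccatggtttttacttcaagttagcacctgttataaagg
Defb39 probe, chr8:19029587-19029646, minus strand: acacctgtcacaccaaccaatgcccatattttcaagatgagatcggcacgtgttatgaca
The Defb2 and Defb10 probes, whose levels also passed, come from the second chromosome 8 block.
Defb2 probe, chr8:20626306-20626365, plus strand: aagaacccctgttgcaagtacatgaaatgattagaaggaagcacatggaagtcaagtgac
Defb10 probe, chr8:20644763-20644822, plus strand: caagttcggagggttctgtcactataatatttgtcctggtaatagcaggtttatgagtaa
The 2 Defb19 probes overlap by the 40 bases in capitals, so their values are not independent.
Defb19 probe A_52_P117601, chr2:152317036-152317095, minus strand: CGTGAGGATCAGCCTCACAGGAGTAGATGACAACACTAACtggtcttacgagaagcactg
Defb19 probe A_51_P182685, chr2:152317056-152317115, minus strand: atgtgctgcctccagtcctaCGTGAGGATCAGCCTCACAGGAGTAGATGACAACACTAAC

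The first question was how many beta-defensins the testis samples contained at a measurable level. Of the 26 probes, 11 were well above background on all 8 arrays (42.3%, against 70.1% of all probes), 6 on 4 to 7 arrays, 6 on 1 to 3 arrays, and 3 on none (11.5%, against 12.2% of all probes). The 3 never detected were Defb5, Defb6 and Defb12, and their probes sat at the floor on every array. Defb5 and Defb6 belong to the same paralog group as Defb3, whose probe was detected on all arrays. The probes detected on all arrays were those of Defb3, Defb8, Defb11, Defb13, Defb14, Defb15, Defb34, Defb38 and Defb41 and both of Defb19.

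Detection was more frequent on the mutant arrays. Mutant arrays 1 to 4 had 21, 18, 17 and 22 beta-defensin probes well above background, and the wild-type arrays had 13, 15, 13 and 14. The ranges did not overlap, and mutant arrays 1 and 4 had the most. Probe by probe, 12 were detected on more mutant arrays than wild-type arrays, 14 on as many of each, and 0 on more wild-type arrays. No such count was made over all probes, so it does not set the family apart. All probes together moved the same way, as given above. The part of that shift in the beta-defensin counts was not tested.

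**Figure D1:**
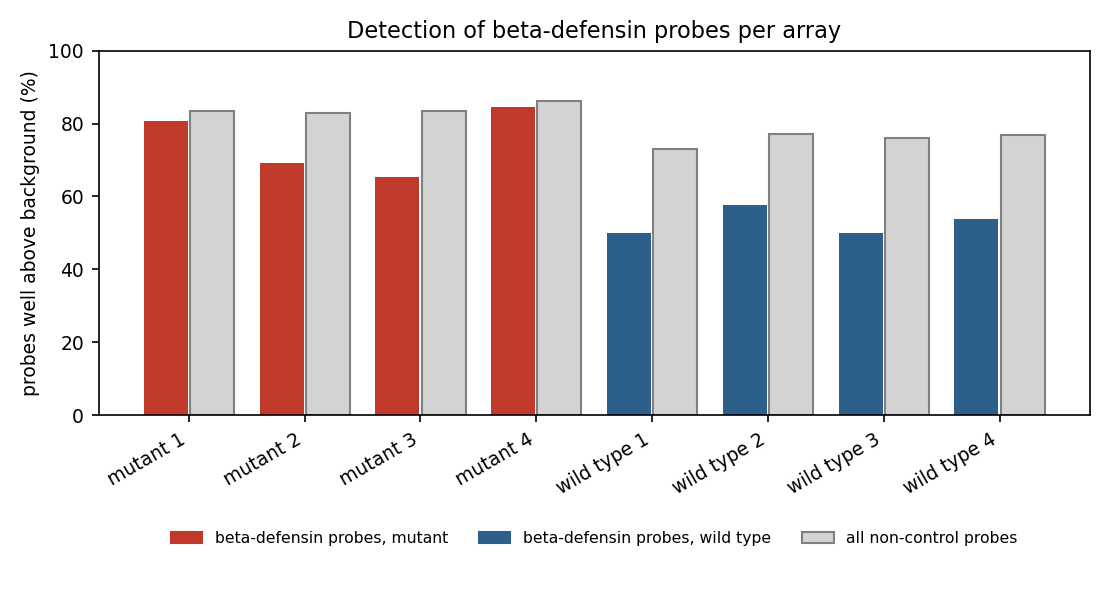
Percentage of probes well above background (vertical axis) on each of the 8 arrays, mutant arrays left of wild-type arrays. Coloured bars are the 26 beta-defensin probes and grey bars all 41174 non-control probes; on each array the coloured bar is the lower of the pair, and both kinds of bar are higher on the mutant arrays.

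The genes fell into 5 places in mm7. The proximal chromosome 8 block runs from Defb40 to Defb7 (positions 18951697 to 19474481, 11 genes) and the distal block from Defb1 to Defb13 (20577467 to 20731475, 9 genes). Defb29 and Defb19 lie on chromosome 2, Defb41 on chromosome 1, and Defb14 on an unplaced part of chromosome 8. Of the 17 probes tested, for 16 genes, 6 were in the proximal block, 6 in the distal block, 3 on chromosome 2 and 1 in each of the other places.

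**Figure D2:**
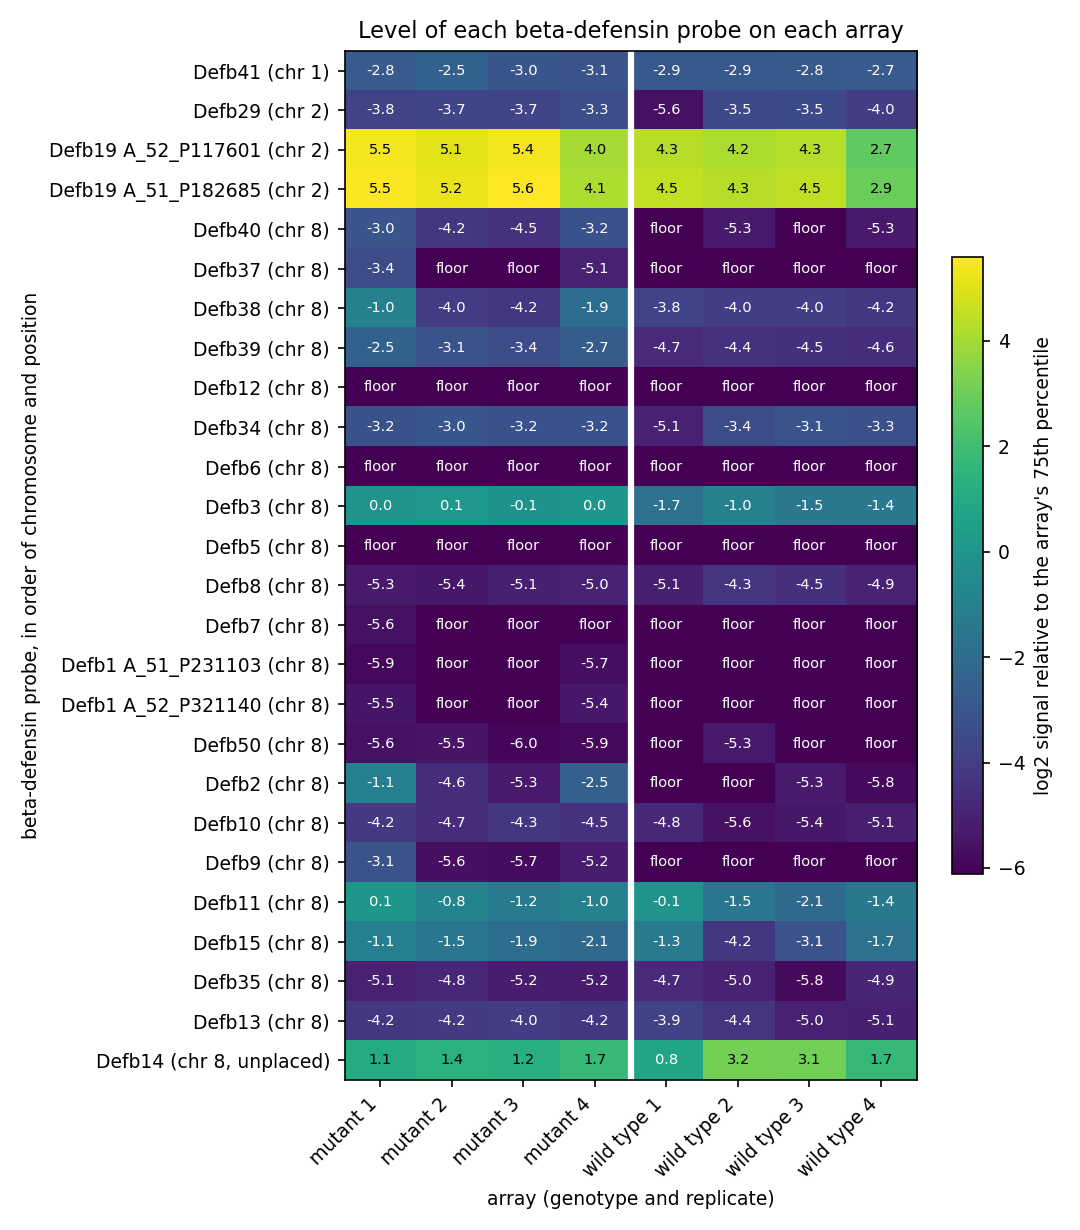
Log2 level of each of the 26 beta-defensin probes (rows, in order of chromosome and position) on each array (columns, mutant left of wild type), with the value written in each cell and values at the floor marked. The mutant 1 and mutant 4 columns hold the brightest cells of Defb40, Defb37, Defb38, Defb39, Defb2 and Defb9, and Defb5, Defb6 and Defb12 are at the floor throughout.

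Of the 17 tested probes, 5 were higher in the mutant (Defb3, Defb39, Defb40, Defb2 and Defb10), 0 were lower, and 12 did not pass. Defb10 met the detection filter through mutant arrays alone, and the counts and the median below include it. Among all tested probes 21.2% were higher and 10.8% lower. At an unadjusted p under 0.05, 7 beta-defensin probes were higher and 1 was lower (41.2% and 5.88%), against 27.8% and 18% of all tested probes. The groups did not overlap for 4 tested probes, all higher in the mutant (Defb3, Defb39, Defb40 and Defb10), and for 1 untested probe, Defb9; for comparison, 21.6% of all tested probes were higher without overlap and 13.8% lower. The median difference of the 17 probes was 0.84, against 0.05 over all probes tested, and 14 of the 17 differences were above 0 (82.4%, against 53.3% of all tested probes). That median is the value of Defb10 itself. Over the 11 probes well above background on all 8 arrays the median was 0.58, against -0.04 over all such probes. The mix of all calls depended on the scaling: 66.2% of calls were higher with the 75th percentile, against 33.9% with the median, 45.1% with the E1A spike-ins, 56.5% with quantile normalization and 40.3% with normexp background correction. The median of all probes was 0.05, -0.17, -0.10, -0.06 and -0.23 in the same order, and the beta-defensin median stayed above it at 0.84, 0.62, 0.69, 0.45 and 0.15.

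Of the 5, the Defb3 probe alone kept its call under all 17 alternative settings. Defb3 is an inducible peptide of mouse airway and other epithelia. Its log2 level was -0.04, 0.11, -0.15 and 0.02 on mutant arrays 1 to 4, against -1.68, -0.99, -1.49 and -1.44 on wild-type arrays 1 to 4. The mutant arrays lay within a narrow range and above every wild-type array. The difference was 1.39 ± 0.17 (SE, n = 4 per genotype), or 2.62-fold (limma, adjusted p = 9.65e-04). Of its paralogs with a probe of their own, only Defb8 was tested. Defb8 had -5.29, -5.37, -5.11 and -5.00 on the mutant arrays, against -5.10, -4.34, -4.49 and -4.93 on the wild-type arrays, a difference of -0.48 (limma, adjusted p = 0.0807). Defb8 was called lower with the median, spike-in and quantile scalings and with normexp, with adjusted p from 0.00296 to 0.0422, and without wild-type array 1 (adjusted p = 0.0332). Defb5 and Defb6 were at the floor, and Defb7 was above it only on mutant array 1.

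Defb39 and Defb40 lie in the proximal block beside Defb37 and Defb38, a group whose transcripts are found mainly in the epididymis. Defb39 levels were -2.49, -3.14, -3.41 and -2.66 on the mutant arrays, against -4.71, -4.45, -4.50 and -4.58 on the wild-type arrays. The groups did not overlap, and the 2 highest mutant arrays were 1 and 4. The difference was 1.64 ± 0.21 (SE, n = 4 per genotype), or 3.11-fold (limma, adjusted p = 0.00124).
Defb40 levels were -3.04, -4.25, -4.47 and -3.18 on the mutant arrays, against the floor, -5.26, the floor and -5.31 on the wild-type arrays. It was well above background on all mutant arrays and on 2 wild-type arrays. The difference was 1.97 ± 0.36 (SE, n = 4 per genotype; limma, adjusted p = 0.00528), and it rests in part on floor values. With normexp neither call held, at differences of 0.36 for Defb39 (adjusted p = 0.225) and 0.15 for Defb40 (adjusted p = 0.641).

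Defb38 did not pass, and its mutant arrays disagreed. Its levels were -1.01, -4.02, -4.23 and -1.87 on the mutant arrays, against -3.76, -3.97, -3.96 and -4.21 on the wild-type arrays. Mutant arrays 2 and 3 lay within or below the wild-type range, and mutant arrays 1 and 4 stood above it. The difference was 1.19 ± 0.64 (SE, n = 4 per genotype; limma, adjusted p = 0.171).
Defb37, chosen after its values were seen, was well above background on mutant arrays 1 and 4 alone, at -3.44 and -5.06, and was at the floor on the other 6 arrays.

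In the distal block, Defb2 and Defb10 passed. Defb2, an airway peptide induced by bacterial products, had levels of -1.06, -4.63, -5.27 and -2.53 on the mutant arrays, against the floor, the floor, -5.26 and -5.80 on the wild-type arrays. It was well above background on 4 mutant arrays and 1 wild-type array, and the lowest mutant array lay just below the highest wild-type array. The difference was 2.45 ± 0.78 (SE, n = 4 per genotype; limma, adjusted p = 0.0391). Leaving out 1 array ended the call in 6 of 8 cases (each array but mutant 2 and mutant 3), with differences from 1.68 to 3.09 and adjusted p from 0.0241 to 0.099 over the 8, and quantile normalization, normexp and testing without the filter on dim probes ended it too.
Defb10 had -4.17, -4.65, -4.26 and -4.47 on the mutant arrays, against -4.78, -5.61, -5.38 and -5.14 on the wild-type arrays. No wild-type array had it well above background, and none was at the floor. Defb10 thus entered the test through the mutant arrays alone, and its fold and p-value are given as a description. The mean levels of -4.39 in mutant and -5.23 in wild-type testes gave 1.79-fold higher signal in the mutant with this scaling (limma, adjusted p = 0.0136). That call ended with quantile normalization (0.40) and turned to -0.25 with normexp (adjusted p = 0.354).
A bound given below as at least a fold sets a dim array at the higher of its own signal and the floor.

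**Figure D3:**
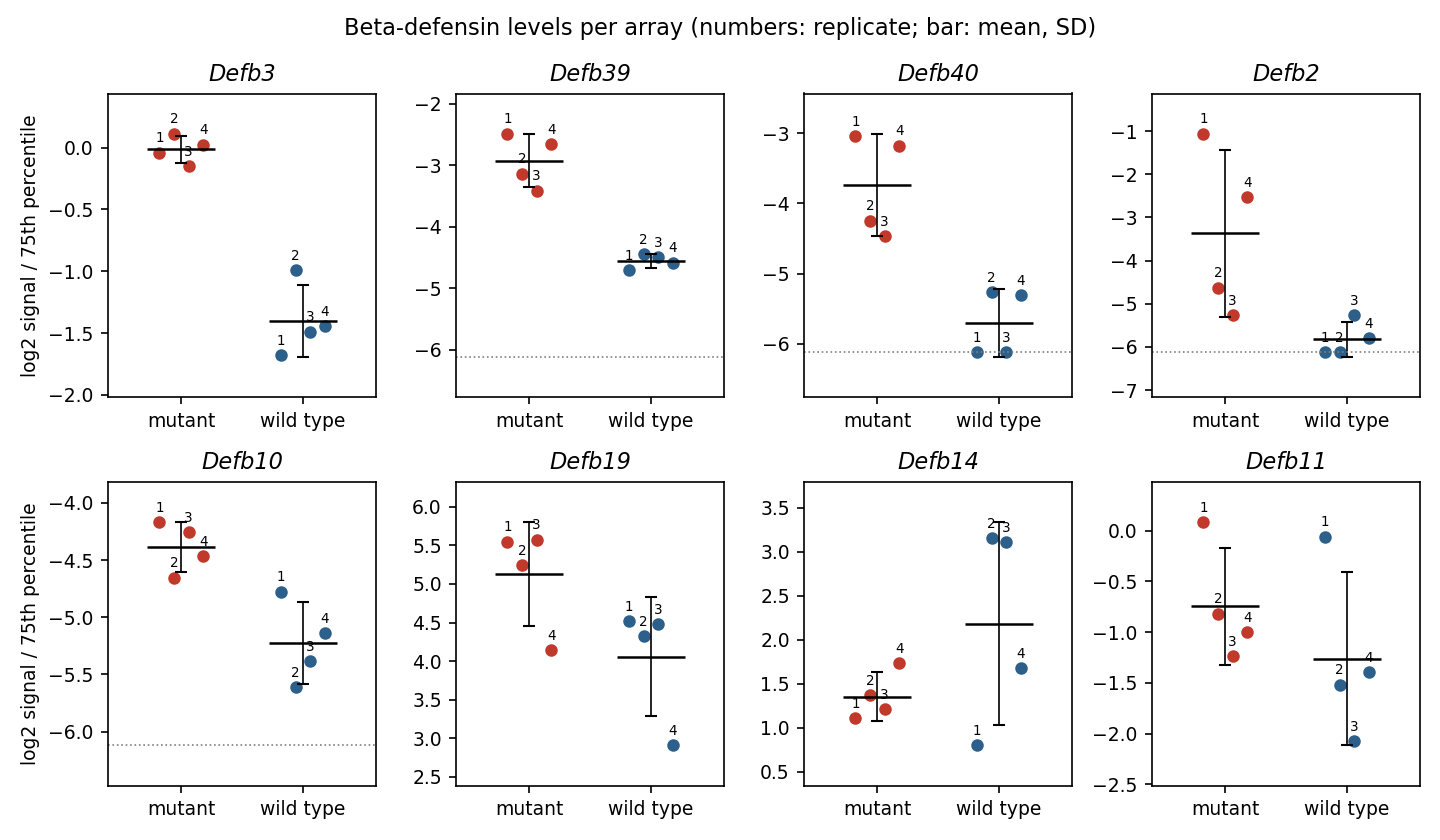
Log2 level (vertical axis, own range per panel) of 8 beta-defensin genes on each array, mutant left of wild type. Points are arrays numbered by replicate, bars are means with SD, and the dotted line is the floor. Defb3, Defb39, Defb40 and Defb10 show no overlap between genotypes, while Defb2, Defb19, Defb14 and Defb11 overlap.

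**Figure D4:**
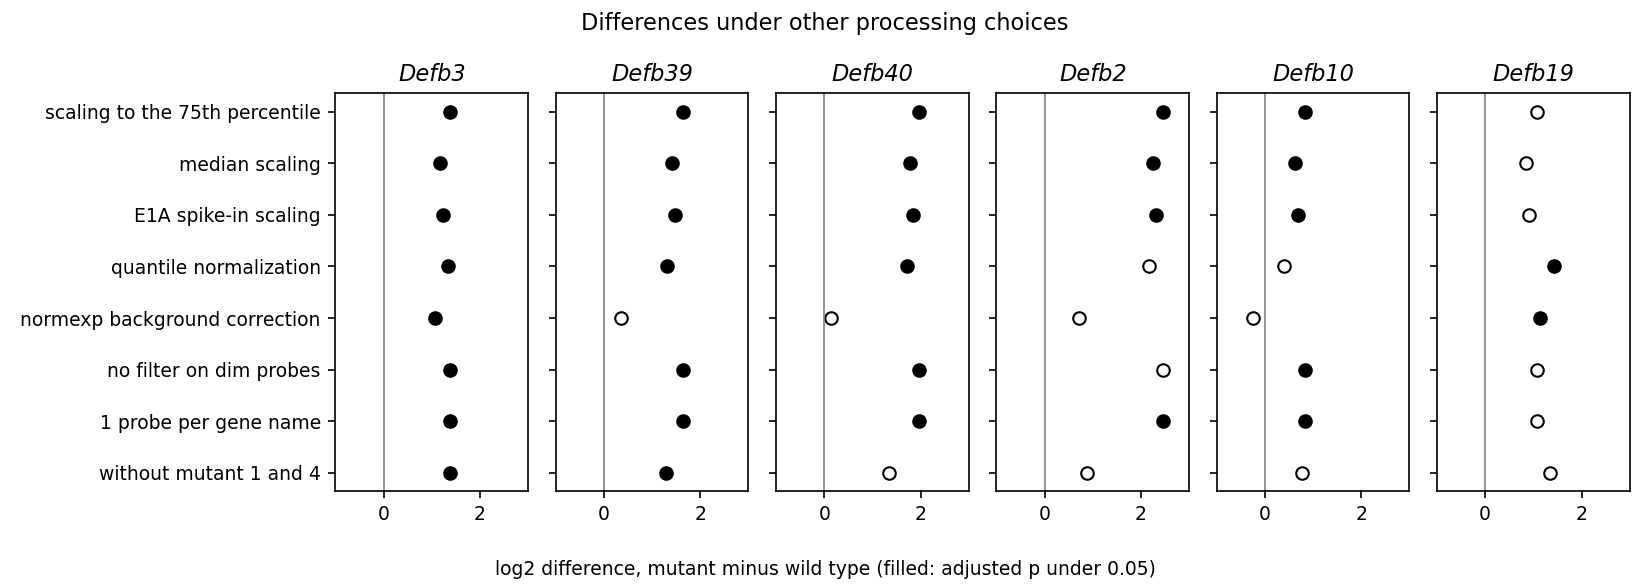
Log2 difference, mutant minus wild type (horizontal axis), of 6 beta-defensin genes under 8 processing settings (rows); filled points passed the adjusted threshold of 0.05. Defb3 is filled in every row, Defb19 (probe A_51_P182685) only with quantile normalization and normexp, and with normexp Defb39, Defb40 and Defb2 are open and Defb10 lies below 0.

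Among the remaining distal genes, Defb11 and Defb15, both known from the male tract, were well above background on every array. Defb11 levels were 0.08, -0.82, -1.24 and -1.0 on the mutant arrays, against -0.06, -1.52, -2.08 and -1.40 on the wild-type arrays. Replicate 1 was the highest of both genotypes, and the difference of 0.52 did not pass (limma, adjusted p = 0.352). Without wild-type array 1 it was 0.92 (adjusted p = 0.0481).
Defb15 levels were -1.07, -1.53, -1.90 and -2.06 on the mutant arrays, against -1.28, -4.22, -3.12 and -1.68 on the wild-type arrays. Wild-type arrays 2 and 3 were low and the other 2 lay among the mutant values, and the difference of 0.94 did not pass (limma, adjusted p = 0.221).
Defb9, chosen after its values were seen, was too seldom detected to be tested. It had -3.12, -5.62, -5.74 and -5.24 on the mutant arrays and was at the floor on all 4 wild-type arrays, at least 2.28-fold higher in the mutant mean. That mean rests largely on mutant array 1. The other distal genes, Defb13, Defb35, Defb50 and Defb1, stayed between the floor and -3.85 on all arrays; Defb13 and Defb35 did not pass and the others were not tested. Defb13 passed without wild-type array 1 (0.67, limma adjusted p = 0.0312). Defb1, a constitutive peptide of kidney and other epithelia, was above the floor with both probes on mutant arrays 1 and 4 and on no other array.

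Defb19 is expressed by Sertoli cells, the somatic cells that nurse the germ cells. Probe A_51_P182685 had 5.55, 5.24, 5.57 and 4.14 on the mutant arrays, against 4.52, 4.33, 4.48 and 2.91 on the wild-type arrays. Probe A_52_P117601 had 5.45, 5.09, 5.41 and 4.02 on the mutant arrays, against 4.34, 4.18, 4.29 and 2.74 on the wild-type arrays. Replicate 4 was low in both genotypes and the groups overlapped. The differences were 1.07 ± 0.42 and 1.11 ± 0.42 (SE, n = 4 per genotype), and neither passed (limma, adjusted p = 0.0742 and 0.0659). Both passed with quantile normalization, with normexp and without mutant replicate 4, where the differences were 1.40 and 1.43.
Of the 16 Sertoli cell marker genes, 14 were higher in the mutant and 0 lower, against 21.2% higher and 10.8% lower among all tested probes. Their median difference was 0.98. Without mutant arrays 1 and 4 the count higher was 3, where 3.91% of all tested probes were higher. Their summed signal was 237.9 to 335 times the array's 75th percentile on mutant arrays, against 104 to 161.6 on wild-type arrays. The part of that shift in the Defb19 values was not tested.

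Defb36 lies beside Defb19 on chromosome 2. Its levels were 2.54, 2.31, 2.57 and 2.32 on the mutant arrays, against 1.74, 1.44, 1.37 and 1.30 on the wild-type arrays. The groups did not overlap, and the difference of 0.97 ± 0.15 (SE, n = 4 per genotype) passed (limma, adjusted p = 0.00259). The third gene of that neighbourhood on the array, Defb29, had levels from -3.78 to -3.34 in the mutant, against -5.58 to -3.51 in wild type, and did not pass (difference 0.54, adjusted p = 0.319 by limma).

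Defb14 and Defb41 complete the detected genes. Defb14, the mouse counterpart of human beta-defensin 3 and a ligand of the chemokine receptor Ccr6, was the gene with the most negative difference. Its levels were 1.10, 1.37, 1.21 and 1.74 on the mutant arrays, against 0.80, 3.16, 3.11 and 1.68 on the wild-type arrays. Wild-type arrays 2 and 3 stood above all mutant arrays, while wild-type array 1 lay below them. The difference of -0.83 ± 0.48 (SE, n = 4 per genotype) did not pass (limma, adjusted p = 0.199), and of the settings tried it passed only without wild-type replicate 1, at -1.29 (adjusted p = 0.0224).
Ccr6 did not pass either, with a difference of -0.05 (adjusted p = 0.856 by limma).
Defb41, an epididymal gene, had -2.76, -2.49, -2.99 and -3.09 on the mutant arrays, against -2.91, -2.90, -2.80 and -2.75 on the wild-type arrays. The difference was 0.01 ± 0.16 (SE, n = 4 per genotype; limma, adjusted p = 0.982). Within the proximal block, Defb34 had levels of -3.17 to -3.00 in the mutant, against -5.06 to -3.09 in wild type, and did not pass (difference 0.58, adjusted p = 0.247 by limma). Its low array was wild-type array 1, whereas the similar Defb15 probe was low on wild-type arrays 2 and 3.

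A shared pattern ran through part of the family: mutant arrays 1 and 4 were the 2 highest of the 8 arrays for 8 of the 26 beta-defensin probes (30.8%), against 10.2% of all probes. These were the probes of Defb40, Defb37, Defb38, Defb39, Defb2, Defb9 and Defb1. The 2 Defb1 probes share 49 bases and are not independent, so the 8 probes stand for 7 genes. Defb1 was close to the floor even on mutant arrays 1 and 4, at -5.88 to -5.35. The pattern was noticed in these data and is given as a description. Crisp1, a secreted protein of the epididymal epithelium that binds sperm, had the same arrays highest, with levels of 2.50, -2.40, -4.20 and 2.80 on the mutant arrays, against -5.56, -4.98, -5.23 and -5.16 on the wild-type arrays (difference 4.91, limma adjusted p = 0.0256). That call ended without mutant array 1, mutant array 4, wild-type array 2 or wild-type array 3 (adjusted p from 0.0502 to 0.0688), with normexp (0.0596), without the filter on dim probes (0.078), and without both mutant arrays 1 and 4, where the difference was 1.94 (0.0616). Adam7, another epididymal gene, chosen after its values were seen, had -0.74, -5.36, the floor and -1.37 on the mutant arrays and was at the floor on all wild-type arrays.
Defb42, left out by the rule, was at -4.08 and -3.67 on mutant arrays 1 and 4 and at the floor on the other 6.

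The epididymal marker list as a whole moved less evenly. Of its 20 genes, 16 were tested, 4 were higher in the mutant (Crisp1, Rnase9, Sult1e1 and Spink8), 1 was lower (Spink10) and 11 did not pass, with a median difference of 0.24. For comparison, 21.2% of all tested probes were higher and 10.8% lower. The count higher was 2 with normexp and 1 without mutant arrays 1 and 4. Summed over the list, the signal was 73.41 to 138.9 times the 75th percentile on mutant arrays, against 61.69 to 115.4 on wild-type arrays, and those ranges overlap. Most of that sum came from Cst8 and Cst12, which were bright on every array (mean levels over all arrays 5.95 and 4.59). The mean log2 level of the 20 genes was -2.79 to -1.78 on mutant arrays, against -3.30 to -2.95 on wild-type arrays, without overlap. Lcn8 and Teddm1 were at the floor on all arrays, and Lcn5 was above it only on mutant array 4. Gpx5 (difference 0.23) and Crisp4 (0.37) did not pass. The part of epididymal RNA in the beta-defensin differences was not tested. Without mutant arrays 1 and 4, Defb3 (1.38) and Defb39 (1.29) still passed, while Defb40 (1.35, adjusted p = 0.0583 by limma), Defb2 (0.88, adjusted p = 0.12) and Defb10 (0.77, adjusted p = 0.114) did not, with 2 mutant arrays left. In that fit 3.91% of all tested probes were higher.

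**Figure D5:**
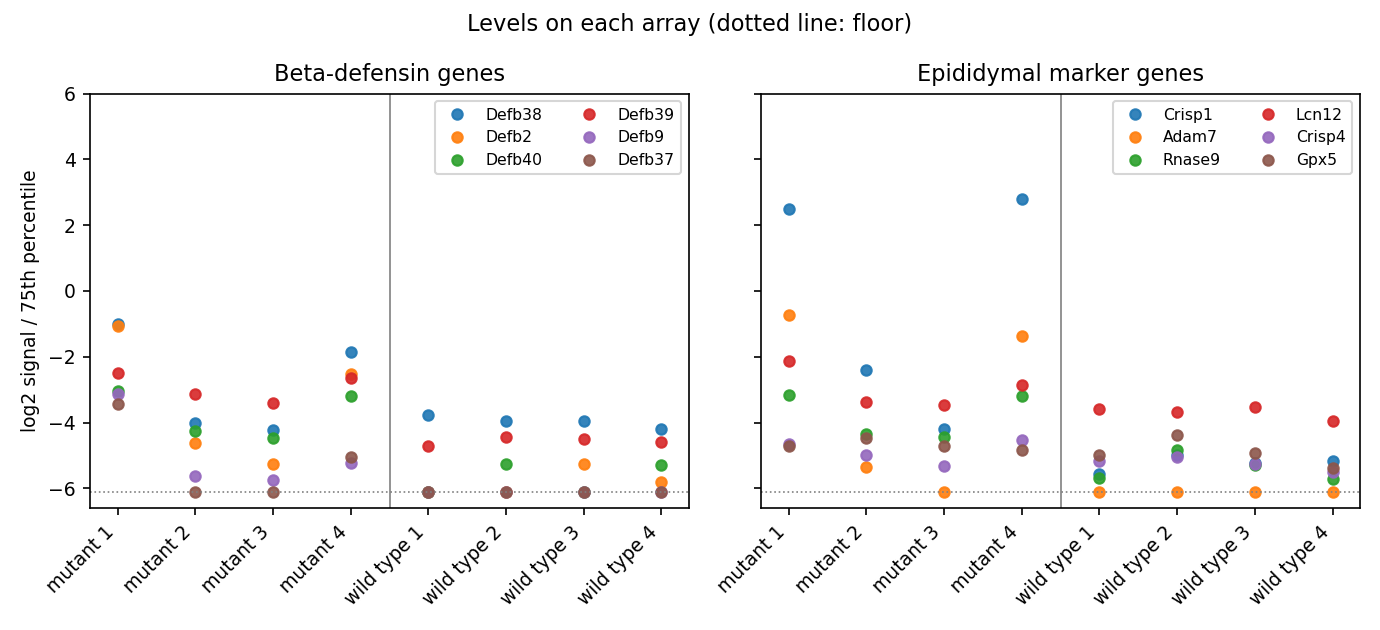
Log2 level (vertical axis) of 6 beta-defensin genes (left panel) and 6 epididymal marker genes (right panel) on each array, mutant arrays left of the vertical line and wild-type arrays right of it; the dotted line is the floor. In both panels mutant arrays 1 and 4 hold the highest points, including Crisp1 at 2.50 and 2.80. Crisp4 is also highest on them but spans a narrow range, and Gpx5 is highest on wild-type array 2. The left panel holds only genes with this pattern, and the right panel 6 of the 20 listed markers. Of the markers not drawn, only Spink8 was also highest on those arrays. Adam28, Lcn5, Lcn8, Lcn9, Lcn10, Cst8, Cst11, Cst12, Rnase10, Spink10, Ros1, Teddm1 and Sult1e1 were not. The right panel therefore shows the pattern more often than the whole list does.

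Markers of other testis cells and of cells that can make antimicrobial peptides were counted in the same fit. Of 9 macrophage genes tested, 7 were higher and 0 lower (median 0.94), with summed signal of 11.58 to 30.99 on mutant arrays, against 8.468 to 9.399 on wild-type arrays. That count of 7 was 3 or 4 without mutant array 1, 3 or 4 or wild-type array 2 or 3, and with median scaling, quantile normalization and normexp. Of 7 Leydig cell genes, 3 were higher and 0 lower (median 0.91), with 1 higher without mutant array 1 or 3 or wild-type array 2 or 3, and 5 without mutant array 2. Of 16 germ cell genes, 0 were higher and 8 lower (median -0.43).
Of 4 neutrophil genes tested, 1 was higher and 1 lower (median 0.74; 0 to 2 higher when 1 array was left out), and 4 of the 9 on the array were never detected. Of 8 genes of keratinised or airway epithelia, 2 were higher and 2 lower (median -0.19), with 0 higher with normexp. Over all tested probes 21.2% were higher and 10.8% lower, and the median was 0.05.

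Related host-defence genes are given by list, beside shares of 21.2% higher and 10.8% lower among all tested probes. Among 31 other antimicrobial genes on the array, 26 were tested, 4 were higher, 3 were lower and 19 did not pass (median 0.29). That list includes 10 tested alpha-defensins, of which 1 was higher and 1 lower. The lysozyme genes Lyz1 and Lyz2, which encode bacterial cell wall-cutting enzymes, were higher by 1.39 (adjusted p = 0.0105 by limma) and 1.36 (adjusted p = 0.0104).
The WAP and Kunitz inhibitor genes, small secreted protease inhibitors of the male tract, had 10 tested genes, of which 5 were higher and 0 lower (median 0.59). The count was 3 without mutant array 1, 3 or 4 or wild-type array 2 or 3 and with quantile normalization, and 2 with normexp. Wfdc6a had the smallest p of them, with a difference of 1.13 (limma, adjusted p = 0.00153). Among 12 tested receptors and regulators of beta-defensins, 5 were higher and 0 lower (median 0.70), among them Ifngr1 (0.61), Vdr (0.86), Il1r1 (0.98) and Tlr2 (1.12). The count was 3 with normexp and 0 without mutant arrays 1 and 4. Toll-like and interleukin-1 receptors relay the bacterial and cytokine signals that induce beta-defensins in epithelia.

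RefSeq windows of 300 bases around the gene start (GRCm38.p6) were found for 14 of the 24 genes, and 3 belonged to genes that passed. They are shown with the letters searched on both strands in capitals: the TATA box letters TATAAA, the CCAAT box by its name, and AGAACA, a half-site that the glucocorticoid receptor can bind.
Defb39, chr8:19064872-19065171, minus strand: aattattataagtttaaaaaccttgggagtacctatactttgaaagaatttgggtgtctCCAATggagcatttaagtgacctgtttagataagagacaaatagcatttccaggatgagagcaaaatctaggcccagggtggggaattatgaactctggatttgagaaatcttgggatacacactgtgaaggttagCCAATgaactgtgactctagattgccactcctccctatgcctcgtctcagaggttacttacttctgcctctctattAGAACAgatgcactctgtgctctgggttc
Defb3, chr8:19293111-19293410, plus strand: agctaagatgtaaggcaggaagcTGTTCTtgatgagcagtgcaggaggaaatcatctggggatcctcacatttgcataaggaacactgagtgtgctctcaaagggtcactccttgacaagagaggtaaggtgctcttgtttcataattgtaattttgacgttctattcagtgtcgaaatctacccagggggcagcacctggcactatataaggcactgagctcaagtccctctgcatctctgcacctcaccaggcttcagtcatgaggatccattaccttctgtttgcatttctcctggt
Defb10, chr8:21858651-21858950, plus strand: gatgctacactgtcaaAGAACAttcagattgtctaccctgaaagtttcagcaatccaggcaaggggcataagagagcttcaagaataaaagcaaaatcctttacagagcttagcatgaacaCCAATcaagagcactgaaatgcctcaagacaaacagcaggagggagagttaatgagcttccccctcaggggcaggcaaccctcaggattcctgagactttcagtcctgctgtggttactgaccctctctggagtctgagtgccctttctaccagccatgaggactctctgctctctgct
AGAACA occurred in 8 of the 14 windows (57.1%), against 19.0% of all 32851 windows. CCAAT occurred in 5 of 14 (35.7%, against 37.4%) and TATAAA in 2 of 14 (14.3%, against 13.6%). Only the exact letters were counted, so the similar stretch tatataag in the Defb3, Defb5, Defb6, Defb7 and Defb8 windows was not. The member windows had a median GC content of 47.0%, against 52.7% over all windows. A match of letters is no evidence of binding, and the windows of paralogs resemble each other.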

How the data were processed

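Total RNA was Trizol-extracted and Cy3-labelled with Agilent's one-colour kit, per the labels' protocols. Agilent Feature Extraction 9.5.3.1 gave the signals, per the submitters' processing notes. The deposited intensity of a spot is its processed signal, background-subtracted and detrended within the array but unscaled between arrays, per the file headers. The deposited value table held the same intensity values for all 45018 features within a relative tolerance of 1e-04. Well-above-background calls were those of the files.

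Control spots (1639) and outlier flags were left out, spots of a probe were averaged, and no beta-defensin spot was saturated. Each array was divided by its 75th percentile, floored and converted to log2. Genotypes were compared over 4 arrays each with lmFit and eBayes in limma 3.58.1 (R 4.3.3), after a check on simulated data. Bounds use the common floor. Alternatives were median, E1A spike-in and quantile scaling, normexp on the mean and local background intensity (offset 50), 2 filters, 1 probe per gene name, the replicate number as a block, leaving out each array, and leaving out mutant arrays 1 and 4. Named with all values were members that passed and the 8 with the highest mean level. The precision is limited by the number of arrays. The members, the 10 gene lists and the alternatives were chosen with earlier results of these data known.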

Additional observations from a re-analysis of the deposited data

Results flagged for a closer look

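Of 50 groups of 4 arrays with values that differed, for the beta-defensin, Defb36, Defb42, Vrk1 and Crisp1 probes, 7 held an array far from the other 3. The rule would mark about 1 in 20 groups of independent values without a floor. That rate does not apply here, since a group with 3 arrays at the floor and 1 above it is always marked. For Defb19, wild-type array 4 was low with both probes, at 2.91 for A_51_P182685 (the others 4.33 to 4.52) and 2.74 for A_52_P117601 (the others 4.18 to 4.34). The probes overlap, so these are not separate events. For Defb34, mutant array 2 was at -3.00 (the others -3.17 to -3.15), a narrow spread, and wild-type array 1 at -5.06 (the others -3.42 to -3.09). Defb7 was at -5.58 on mutant array 1 and at the floor on the other mutant arrays. Defb50 was at -5.30 on wild-type array 2 and at the floor on the other wild-type arrays. The Vrk1 probe A_52_P555672 was at -3.73 on mutant array 1 (the others -3.50 to -3.46), still below every wild-type array.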

How the results depend on the processing

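The Defb3 call held under all 17 alternatives. The count of 5 beta-defensin probes higher in the mutant became 3 with normexp, 4 without the filter on dim probes, 1 when only probes well above background on all 8 arrays were tested (11 member probes), 2 without mutant arrays 1 and 4, and 4 to 6 when 1 array was left out. The 3 with normexp were Defb3 and both Defb19 probes, so of the 5 only Defb3 kept its call there. With quantile normalization the count stayed at 5, with both Defb19 probes in place of Defb2 and Defb10. The count lower, 0, became 1 with median, E1A spike-in and quantile scaling and with normexp, the probe being Defb8 each time, and 0 to 2 when 1 array was left out. With normexp the differences of Defb10 (-0.25), Defb13 (-0.30), Defb29 (-0.23) and Defb34 (-0.10) turned negative. The near-zero difference of Defb41 was -0.21, -0.15, -0.24 and -0.26 with median, spike-in, quantile and normexp settings, and -0.109 to 0.091 when 1 array was left out. That of Defb35 was -0.25 to 0.13 when 1 array was left out and 0.061 without mutant arrays 1 and 4, where Defb38 was -0.16. The cause was not tested. With 1 probe per gene name, 1 Vrk1 probe remained in the test. The slide could not be fitted as a block, since each slide held 1 genotype. Replicate numbers were not shown to pair the samples. Same-numbered arrays had correlated deviations of 0.28, 0.24, 0.09 and 0.61 for numbers 1 to 4, not all above 0.1. Each mutant array correlated most with its same-numbered wild-type array, for number 3 by a narrow margin (0.09, against 0.086 with wild-type array 2). Wild-type array 3 correlated more with mutant array 2 (0.196) than with mutant array 3. With the replicate block, 8 beta-defensin probes were higher and 0 lower, and 27.4% of all tested probes were higher. The block added Defb11 (limma, adjusted p = 0.0284) and both Defb19 probes (0.00169 for A_51_P182685 and 0.00161 for A_52_P117601). Levels near the floor limit what can be read from the dim genes, since they depend on the background correction.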

Other observations

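The alpha-defensins, which in mice are mainly peptides of intestinal Paneth cells, separated the wild-type arrays from each other. For 12 of 15 alpha-defensin probes (80%), wild-type arrays 2 and 3 were both above wild-type arrays 1 and 4, against 23.7% of all probes and 4 of the 26 beta-defensin probes (15.4%). Defb14 was among those 4, with Defb29, Defb39 and Defb8. Alpha-defensin genes are close paralogs, so their probes are not separate measurements. These genes and arrays were picked out after their values were seen, and no test was made.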
